A study of Homo sapiens with 4 samples.

Results

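The genes described here build, cut or hold together the matrix around cells: collagens, laminins, fibronectin and other matrix glycoproteins, the enzymes that modify collagen, the ADAM, ADAMTS and MMP proteases with their inhibitor TIMP1, and the cadherins, catenins, claudins and nectins of cell-cell junctions. They were chosen by gene symbol alone, as the rows of the table whose symbol begins with or equals the name of one of these families, and integrins were left out. The rule found 77 of the 9885 genes listed, and 75 of the 77 were annotated as protein-coding. It also took in 4 genes that share only the letters of a family name and are given apart. The RNA-seq came from HeyA8 cells, a human ovarian cancer line, in 4 forms with 1 library each. A8 was the parental line. A8i carried stable shRNA silencing of ECM1, which encodes the secreted extracellular matrix protein 1. A8i-A and A8i-B were A8i cells that also expressed HA-tagged ECM1a, or ECM1b, an isoform that lacks an exon of ECM1a, from a cDNA, so that the ECM1 shRNA was common to A8i, A8i-A and A8i-B. The baseline column was the parental line, and a line with a control shRNA or an empty vector was not analysed here. For each gene the deposited table gave a whole number of events in each library, from 0 to 32. The kind of event and the counting program are not given in the sources used here, and a number of events is not an expression level. With 1 library per line no difference had a replicate check, and every difference below is one between libraries.

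Collagens are trimers of chains wound into a triple helix of repeated Gly-X-Y triplets, which hydroxylases of the P4HA and PLOD families modify inside the cell and LOX enzymes cross-link outside it. Laminins are the trimers that organise basement membranes. ADAM proteases release the outer parts of membrane proteins, ADAMTS and MMP proteases cut matrix proteins, and cadherins, bound inside the cell by catenins, join neighbouring cells. Many of these genes are textbook cases of alternative exons, among them the extra domains of fibronectin, the variable exons of CD44 and the short Gly-X-Y exons of COL13A1, and ovarian cancer cells meet this matrix when they attach to the peritoneum.

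The following exons are shown because they are parts of event-rich or called members where annotated protein-coding transcripts differ. The deposited numbers do not tell which exon an event concerned. Coordinates and sequences are those of GRCh37, capitals mark the exon, and the lower-case letters are the 10 intron bases on either side, read 5′ to 3′ on the strand of the gene.
COL13A1, 42-nt exon included in 9 and skipped by 7 of 18 coding transcripts, chr10:71695106-71695147, forward strand: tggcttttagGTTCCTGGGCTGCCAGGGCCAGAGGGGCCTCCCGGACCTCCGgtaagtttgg
COL13A1, 36-nt exon included in 10 and skipped by 6 of 18, chr10:71700744-71700779, forward strand: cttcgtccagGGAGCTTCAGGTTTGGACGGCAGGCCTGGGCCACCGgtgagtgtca
COL13A1, 27-nt exon included in 5 and skipped by 6 of 18, chr10:71637795-71637821, forward strand: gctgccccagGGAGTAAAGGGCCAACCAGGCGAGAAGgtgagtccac
FN1, 270-nt extra domain A exon included in 5 and skipped by 6 of 13, chr2:216245534-216245803, reverse strand: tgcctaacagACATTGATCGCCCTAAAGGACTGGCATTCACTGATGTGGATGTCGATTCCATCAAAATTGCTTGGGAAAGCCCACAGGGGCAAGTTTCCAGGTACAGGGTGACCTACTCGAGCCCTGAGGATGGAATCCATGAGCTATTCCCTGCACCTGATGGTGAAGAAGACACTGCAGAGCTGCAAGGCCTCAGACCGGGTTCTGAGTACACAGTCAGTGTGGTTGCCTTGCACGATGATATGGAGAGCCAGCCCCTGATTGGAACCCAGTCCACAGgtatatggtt
FN1, 273-nt extra domain B exon included in 3 and skipped by 7 of 13, chr2:216257654-216257926, reverse strand: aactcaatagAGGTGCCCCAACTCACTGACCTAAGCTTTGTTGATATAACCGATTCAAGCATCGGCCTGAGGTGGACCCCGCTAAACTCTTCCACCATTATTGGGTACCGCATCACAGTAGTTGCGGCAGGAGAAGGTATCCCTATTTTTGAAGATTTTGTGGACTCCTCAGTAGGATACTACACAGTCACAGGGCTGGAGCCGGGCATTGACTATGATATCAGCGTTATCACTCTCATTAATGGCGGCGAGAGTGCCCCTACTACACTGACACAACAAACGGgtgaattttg
CD44, 126-nt variable exon included in 5 and skipped by 5 of 25, chr11:35219668-35219793, forward strand: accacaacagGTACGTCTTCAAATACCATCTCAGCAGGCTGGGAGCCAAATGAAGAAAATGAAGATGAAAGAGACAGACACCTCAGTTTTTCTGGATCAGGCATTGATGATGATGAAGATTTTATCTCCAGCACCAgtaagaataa
CTNND1, 18-nt exon included in 12 and skipped by 25 of 39, chr11:57573933-57573950, forward strand: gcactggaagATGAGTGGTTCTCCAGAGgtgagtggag
CTNND1, 87-nt exon included in 12 and skipped by 22 of 39, chr11:57583387-57583473, forward strand: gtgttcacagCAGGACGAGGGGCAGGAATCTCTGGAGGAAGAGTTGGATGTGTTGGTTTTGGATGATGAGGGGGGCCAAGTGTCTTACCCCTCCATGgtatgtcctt
ADAM15, 72-nt exon included in 3 and skipped by 5 of 10, chr1:155034380-155034451, forward strand: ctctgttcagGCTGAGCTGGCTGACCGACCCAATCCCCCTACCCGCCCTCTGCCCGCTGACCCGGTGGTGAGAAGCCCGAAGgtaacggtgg
ADAMTSL4, 69-nt exon included in 3 and skipped by 3 of 6, chr1:150527042-150527110, forward strand: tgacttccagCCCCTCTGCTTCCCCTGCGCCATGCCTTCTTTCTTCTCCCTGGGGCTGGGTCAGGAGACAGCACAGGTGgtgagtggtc
THBS3, 27-nt exon included in 3 and skipped by 1 of 4, chr1:155173304-155173330, reverse strand: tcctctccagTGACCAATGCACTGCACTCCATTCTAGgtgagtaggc

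Each of the exons shown is a multiple of 3 nt long, so that skipping it keeps the reading frame. Another THBS3 exon, not shown, is 103 nt long and breaks the frame when skipped (chromosome 1, 155174646 to 155174748), in 1 of 4 coding transcripts. In COL13A1, all 12 exons that a coding transcript skips had this property, with lengths from 27 to 87 nt. The exons lie within COL13A1 (forward strand of chromosome 10, 71561636 to 71724031), FN1 (reverse strand of chromosome 2, 216225163 to 216300796), CD44 (forward strand of chromosome 11, 35160429 to 35253949), CTNND1 (forward strand of chromosome 11, 57520715 to 57587018), ADAM15 (forward strand of chromosome 1, 155023042 to 155035251), ADAMTSL4 (forward strand of chromosome 1, 150521845 to 150533413) and THBS3 (reverse strand of chromosome 1, 155165379 to 155178842). ADAMTSL4 lies 35579 nt from ECM1 itself, and THBS3 lies 130127 nt from ADAM15. Distances were taken for these pairs of genes alone, and a link between position and event numbers was not tested.

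The libraries held 20535 to 24513 events over all genes, lowest in A8i, and ECM1 had 2 events in each, so that the silenced gene gave no check of the labels. Markers fixed for the labelled ovarian cancer cells were present in part. PAX8, a transcription factor of Müllerian epithelium, had 11 events in A8 and 7 in each other library. Keratin 8 (KRT8) had 5 to 7 events, whereas EPCAM had 0 in each library, and 3 of the 5 ovarian carcinoma markers and 4 of the 6 epithelial markers were rows of the table. The ovarian carcinoma list summed to 14 events in A8 and 8 to 11 in the other libraries, lowest in A8i, and its part in the results below was not tested. The epithelial list summed to 7 to 9 events, and the mesenchymal list, with 3 of 5 markers as rows, to 14 to 17. FN1, itself a member, gave 9 to 11 of the mesenchymal events. VIM of this list had 3, 1, 3 and 2 events in A8, A8i, A8i-A and A8i-B. By the rule used below, VIM was called with fewer events in A8i than in A8 and in A8i-A. MSLN of the ovarian carcinoma list had 2, 1, 2 and 3, and was called with more in A8i-B than in A8i. The endothelial markers had 0 rows of 4, the leukocyte markers 1 of 4, with 1 event in all, and the fibroblast markers 1 of 5, COL1A1. In a bulk library, fewer cells of a type and less RNA per cell cannot be told apart. The numbers of events measure neither, and 0 events or a missing row does not show that a marker was not expressed.

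Of the 77 members, 46 (59.7%) had an event in all 4 libraries, 28 had an event in some of them, and 3 had none in any. Over the whole table, 60.6% of genes had an event in all 4 libraries and 1.69% had none in any. Members with at least 1 event numbered 58 in A8 (75.32%; 95% exact Clopper-Pearson interval, 64.18–84.44%) and 50 in A8i (64.94%; 53.22–75.47%). They numbered 66 in A8i-A (85.71%; 75.87–92.65%) and 61 in A8i-B (79.22%; 68.46–87.63%), against 82.21% (A8), 73.75% (A8i), 78.89% (A8i-A) and 81.62% (A8i-B) of all genes. At this limit of 1 event, A8i was the library with the fewest members detected, as it was over all genes, and A8i-A the one with the most. At a limit of 2 events, A8i had the fewest members (32) and A8i-B the most (42), with 36 in A8 and 35 in A8i-A. These intervals, like the others given here, treat genes or events as independent and cover only the counting error.

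The members carried 209 events in A8, 178 in A8i, and then 218 in A8i-A and 233 in A8i-B. Their share of the library total was 0.8526% (0.7413–0.9758%) in A8 and 0.8668% (0.7446–1.003%) in A8i, beside 0.9607% (0.8379–1.096%) in A8i-A and 0.9614% (0.8424–1.092%) in A8i-B. These intervals overlap. The median member had 6 events summed over the 4 libraries (quartiles 2 and 13), as did the median gene of the table (quartiles 3 and 12). The events were concentrated in a few members: ADAM15, CD44 and CTNND1 held 22.1% of the 838 member events, and the top 10 held 50.2%. The other 7 of these were ADAMTS6, FN1, CLDND1, COL13A1, P4HA2, CDH24 and ADAMTS10. The colour map of all members shows this concentration beside the many rows with 0 to 2 events.

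**Figure D1:**
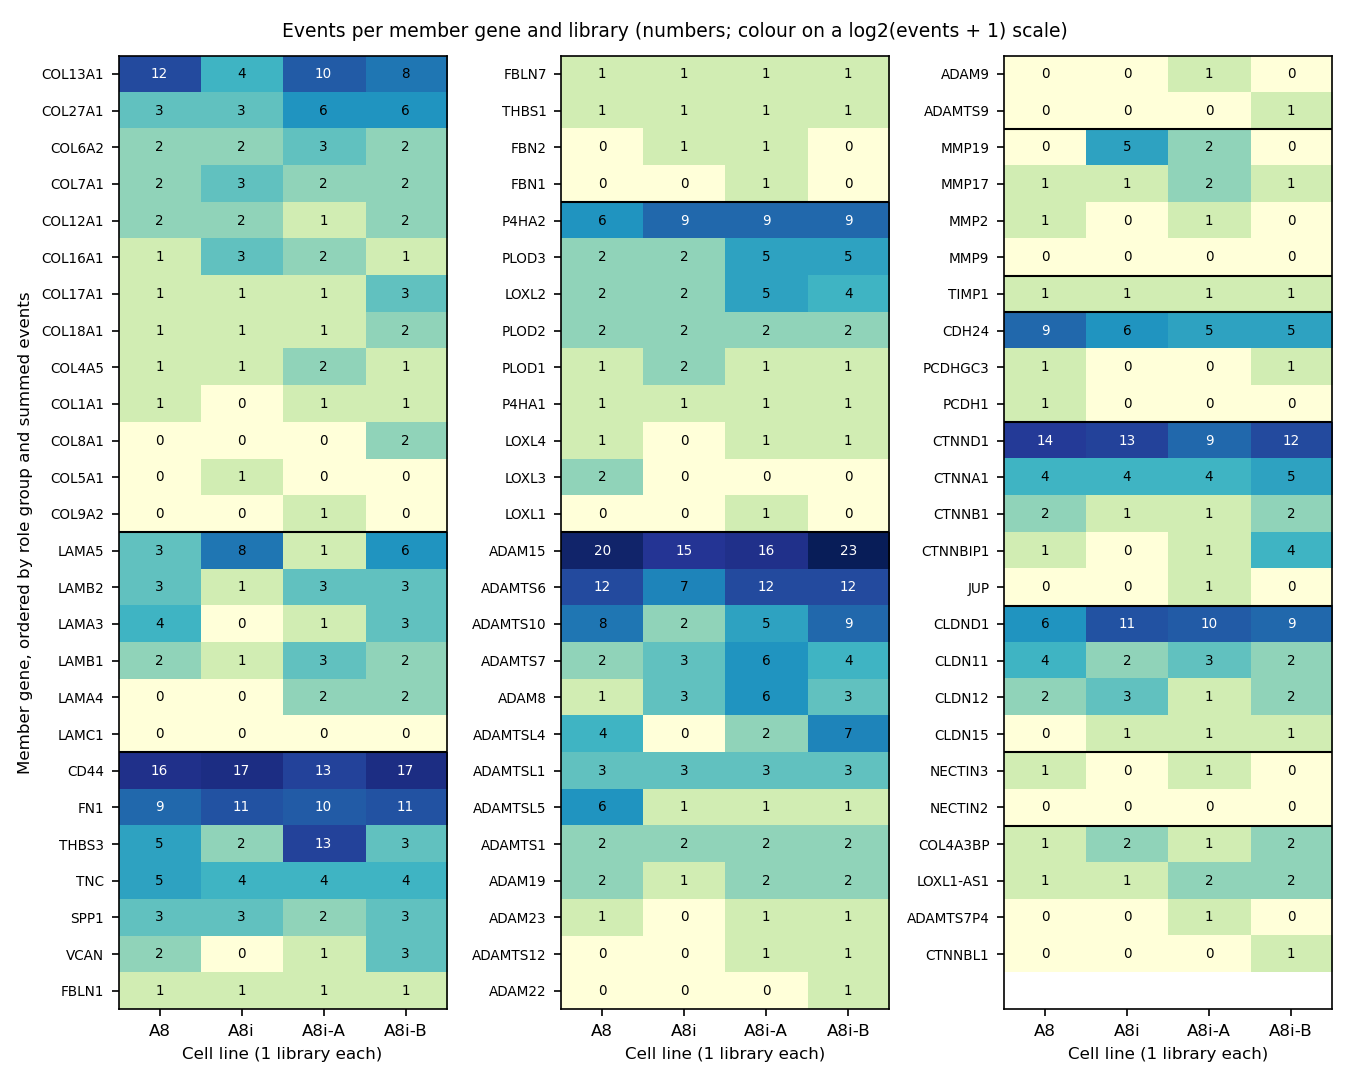
Events of each of the 77 member genes (rows, ordered by role group and summed events, with lines between groups) in the 4 libraries (columns); the number is the event number and the colour its log2(events + 1). ADAM15 reached 23 events in A8i-B, whereas LAMC1, MMP9 and NECTIN2 had 0 in each library.

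The members' total in A8i was 85.2% of that in A8 (69.3–104.5%), beside 83.8% over all genes, and 26 members had fewer events in A8i, 16 had more and 35 had the same number. The total in A8i-A was 122.5% of that in A8i (100–150.1%; all genes, 110.5%), and the total in A8i-B was 130.9% (107.2–160.0%; all genes, 118.0%). Between the reintroduced isoforms, the A8i-A total was 93.6% of that in A8i-B (77.4–113.0%), beside 93.6% over all genes. The interval of the members held the ratio over all genes in each of these 4 pairs. A8i had fewer events than any other library for 15 members (19.5%; 14.6% of all genes) and more than any other for 8 (10.4%; 8.87% of all genes). A8i-A was strictly highest for 14 members (18.2%; 12.6% of all genes), and A8i-B was strictly lowest for 0 members, beside 6.17% of all genes.

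To ask which members differed with silencing and with each isoform put back, a gene was called where a pair of libraries differed by at least 2 events and by at least 2-fold on the (events + 1) scale. The rule is one of size, with no test behind it. Between A8i and A8, 4 members (5.19%) had more events in A8i, beside 3.46% of all genes, namely ADAM8, COL16A1, LAMA5 and MMP19. Fewer events in A8i were called for 9 members (11.7%), beside 10.2% of all genes, namely ADAMTS10, ADAMTSL4, ADAMTSL5, COL13A1, LAMA3, LAMB2, LOXL3, THBS3 and VCAN. After scaling to the library totals, the split of 4 more and 9 fewer became 5 and 5, with CLDND1 added to the first and ADAMTS10, ADAMTSL4, ADAMTSL5, COL13A1 and LAMA3 left in the second; the share over all genes was then 3.79% and 4.18%.

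When ECM1a was put back, 9 members (11.7%) had more events in A8i-A than in A8i, beside 8.35% of all genes. They were ADAMTS10, ADAMTSL4, COL13A1, LAMA4, LAMB1, LAMB2, LOXL2, PLOD3 and THBS3. Fewer events in A8i-A were called for 3 members (3.9%; 4.82% of all genes), CLDN12, LAMA5 and MMP19. Scaling turned the split of 9 and 3 into 4 and 3, beside 5.79% and 4.83% of all genes. When ECM1b was put back, 10 members (13%) had more events in A8i-B than in A8i, beside 10.7% of all genes. They were ADAMTS10, ADAMTSL4, COL17A1, COL8A1, CTNNBIP1, LAMA3, LAMA4, LAMB2, PLOD3 and VCAN. Fewer events in A8i-B were called for 2 members (2.6%; 3.96% of all genes), COL16A1 and MMP19. Scaling turned the split of 10 and 2 into 5 and 2, beside 4.05% and 4.25% of all genes. Between the isoforms, 2 members (2.6%; 5.13% of all genes) had more events in A8i-A, MMP19 and THBS3. The 7 members (9.09%; 8.31% of all genes) with more events in A8i-B were ADAMTSL4, COL17A1, COL8A1, CTNNBIP1, LAMA3, LAMA5 and VCAN. With scaling the split was 2 and 3, beside 5.14% and 3.2% of all genes. Most of these shares lay near those over all genes, and the differences from them were not tested.

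ADAMTS10, ADAMTSL4 and LAMB2 were called with fewer events in A8i than in A8, A8i-A or A8i-B, and MMP19 with more. These comparisons share the A8i library, so a low or high number in it enters all of them, and nothing further is read from such repeats. In all, 21 members (27.3%) were called in at least 1 pair and 56 in none, beside 30.1% of all genes called in at least 1 pair. The calls came to 46 combinations of member and pair, and in 4 of the 46 (8.7%) the exact counting interval of the ratio left out 1, beside 3.32% of the calls over all genes. Those 4 were THBS3 in A8i-A against A8i and against A8i-B, LAMA5 in A8i-A against A8i, and ADAMTSL4 in A8i-B against A8i. The same event numbers picked the calls and gave the intervals, so the intervals are no separate support. They were not adjusted for the many comparisons, and both THBS3 ratios use the same A8i-A number. The difference between 8.7% and 3.32% was not tested.

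**Figure D2:**
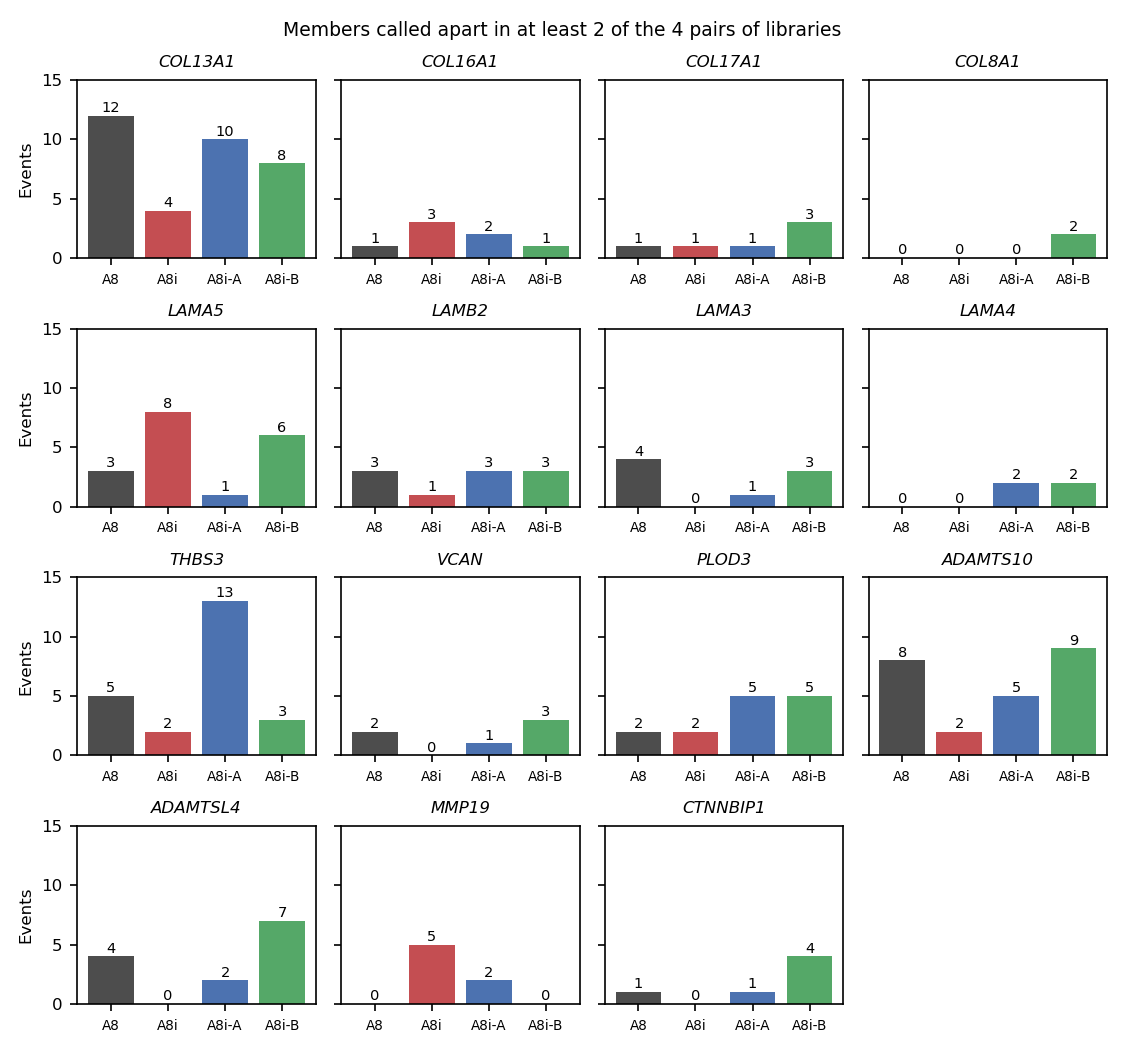
Events (vertical axis, from 0) in the 4 libraries for the 15 members called in at least 2 of the 4 pairs; each bar is 1 library and has no error bar. THBS3 stands at 13 in A8i-A and at 2 to 5 elsewhere, and ADAMTSL4 at 0 in A8i and 7 in A8i-B.

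The 13 collagens held 12.8% of the member events, with 26 in A8, 21 in A8i and 30 in each of A8i-A and A8i-B. COL13A1, a transmembrane collagen of cell-matrix junctions, had 12 events in A8, 4 in A8i, and then 10 in A8i-A and 8 in A8i-B. A8i was the low library for this gene. The A8 number was 3 times that of A8i, with a counting interval of 0.9092 to 12.76, and the A8i-A number was 2.5 times that of A8i (0.7211 to 10.92). COL27A1, a fibrillar collagen of cartilage, had 3 events in A8 and 3 in A8i, beside 6 in each of A8i-A and A8i-B, but was not called in any pair. COL16A1, a fibril-associated collagen, had 1, 3, 2 and 1 events in A8, A8i, A8i-A and A8i-B, so that its call rested on 3 events against 1. COL17A1, the transmembrane collagen of hemidesmosomes, had 1 event in A8, A8i and A8i-A and 3 in A8i-B. COL8A1, a network-forming collagen, had 2 events in A8i-B and 0 in the other libraries.

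The 8 other collagens had 0 to 3 events per library and were called in no pair. They were COL6A2 of the beaded filaments, COL7A1 of the anchoring fibrils, the fibril-associated COL12A1 and COL9A2, the basement membrane chains COL18A1 and COL4A5, and the fibril-forming COL1A1 and COL5A1. COL1A1, the main chain of type I collagen, had 0 events in A8i and 1 in each other library. A long gene with many introns did not always have many events: COL7A1 had 121 distinct annotated introns and 9 events summed over the 4 libraries, whereas COL13A1 had 76 introns and 34 events.

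Of the 6 laminins, 5 were called in at least 1 pair, with most of the calls on 3 events or fewer, beside 30.1% of all genes, and the difference was not tested. Their events summed to 12 in A8, 10 in A8i, and then 10 in A8i-A and 16 in A8i-B, 5.7% of the member events. LAMA5, the alpha chain of most adult epithelial basement membranes, had 3 events in A8 and 8 in A8i, beside 1 in A8i-A and 6 in A8i-B. It was high in A8i and lowest in A8i-A, where the number was 8-fold lower than in A8i (1.073 to 355). LAMA5 overlaps ADRM1, LAMA5-AS1 and MIR4758 in the annotation, and the strand of the counting is not stated. LAMA3, the alpha chain of the hemidesmosomal laminin, ran the other way between A8 and A8i, with 4 events in A8, 0 in A8i, and then 1 in A8i-A and 3 in A8i-B. The counting interval of 4 events against 0 held a ratio of 1.

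LAMB2, the beta chain of laminins at synapses and in the glomerulus, had 3 events in A8, A8i-A and A8i-B and 1 in A8i. LAMB1, the common beta chain, had 2, 1, 3 and 2 events in A8, A8i, A8i-A and A8i-B. LAMA4, the alpha chain of vessel walls, had 0 events in A8 and A8i and 2 in each of A8i-A and A8i-B. All of these calls rest on 3 events or fewer. LAMC1, the gamma chain shared by most laminins, had 0 events in each library.

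The 11 matrix glycoproteins with CD44 held 21.0% of the member events, with 43 in A8 and 41 in A8i, beside 48 in A8i-A and 44 in A8i-B. CD44, the hyaluronan receptor whose variable exon is shown above, had 16 events in A8, 17 in A8i, and then 13 in A8i-A and 17 in A8i-B. FN1, which encodes fibronectin with its extra domains A and B, had 9, 11, 10 and 11. Both numbers thus stayed within a narrow range over the libraries, and neither gene was called in any pair. TNC, the matricellular protein tenascin-C, had 5 events in A8 and 4 in each other library, and SPP1, osteopontin, had 3, 3, 2 and 3.

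THBS3, a thrombospondin of cartilage and bone matrix, had 5 events in A8 and 2 in A8i, beside 13 in A8i-A and 3 in A8i-B. A8i-A stood apart from the other libraries, at 6.5 times the number in A8i (1.472 to 59.33) and 4.333 times that in A8i-B (1.191 to 23.71). THBS3 overlaps MTX1 and THBS3-AS1 in the annotation, and without a stated strand for the counting their reads cannot be told apart from those of THBS3. THBS1, the thrombospondin of platelets, had 1 event in each library. VCAN, the large chondroitin sulfate proteoglycan versican, had 2 events in A8, 0 in A8i, and then 1 in A8i-A and 3 in A8i-B. The fibulins FBLN1 and FBLN7 had 1 event in each library, and the microfibril proteins FBN1 and FBN2 had 0 or 1.

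The 9 collagen-modifying enzymes held 9.9% of the member events, with 17 in A8 and 18 in A8i, beside 25 in A8i-A and 23 in A8i-B. P4HA2, a catalytic subunit of prolyl 4-hydroxylase, had 6 events in A8 and 9 in each of the derived lines, short of the rule. PLOD3, a lysyl hydroxylase that also glycosylates collagen, had 2 events in A8 and A8i and 5 in A8i-A and A8i-B. LOXL2, a lysyl oxidase, was listed similarly, with 2, 2, 5 and 4 events in A8, A8i, A8i-A and A8i-B. The 5 events against 2 give a ratio of 2.5 (0.4093 to 26.25), an interval that holds 1. LOXL3 had 2 events in A8 and 0 in the 3 lines with the shRNA. PLOD1, PLOD2, P4HA1, LOXL4 and LOXL1 had 0 to 2 events per library and no call.

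The ADAM and ADAMTS genes formed the group with the most events, 27.0% of the total, and A8i was its low library. Their events summed to 61 in A8, 37 in A8i, and then 58 in A8i-A and 70 in A8i-B over 15 genes. The A8i sum was 60.7% of the A8 sum (39.2–92.7%), the A8i-A sum was 156.8% of that in A8i (102.0–243.6%), and the A8i-B sum was 189.2% (125.3–289.9%). As shares of the library totals, the same ratios were 72.4%, 141.9% and 160.3%. The A8i-A sum was 82.9% of the A8i-B sum (57.5–119.1%). Without ADAM15, an alternative chosen after the values were seen, the ratios were 53.7% (30.4–92.2%), 190.9% (111.4–335.8%), 213.6% (126.2–372.3%) and 89.4% (57.5–138.5%) in the same order. With ADAM15, the intervals for A8i against A8 and for A8i-A against A8i held the ratios over all genes, 83.8% and 110.5%, and the interval for A8i-B against A8i lay above the 118.0% of all genes. Without it, the interval for A8i-A against A8i also lay above that of all genes. The group was 1 of 12 role groups described.

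ADAM15, a membrane disintegrin with alternatively spliced cytoplasmic tails, had 20 events in A8 and 15 in A8i, beside 16 in A8i-A and 23 in A8i-B. ADAMTS6, a matrix protease of the ADAMTS family, had 12 events in A8, A8i-A and A8i-B and 7 in A8i. Both were lowest in A8i but short of the rule. ADAMTS10, which binds fibrillin microfibrils, had 8 events in A8, 2 in A8i, and then 5 in A8i-A and 9 in A8i-B. The number in A8 was 4 times that in A8i (0.7983 to 38.67) and the number in A8i-B 4.5 times (0.9314 to 42.8). ADAMTSL4, an ADAMTS-like protein without protease activity that binds microfibrils, had 4 events in A8 and 0 in A8i, beside 2 in A8i-A and 7 in A8i-B. With the floor of 3 counts in place of 0 in A8i, the 7 ADAMTSL4 events in A8i-B gave a ratio of 2.33. That value takes no account of the counting error of the 7 events. The exact counting interval of A8i-B against A8i left out 1, whereas that of A8 against A8i, 4 events against 0, held a ratio of 1. This gene overlaps ADAMTSL4-AS1, ADAMTSL4-AS2 and MCL1 in the annotation.

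ADAMTSL5, another ADAMTS-like protein, had 6 events in A8 and 1 in each line with the shRNA. It was not called again in A8i-A or A8i-B, where its number stayed at that of A8i. ADAM8, a protease of leukocytes and tumour cells, had 1 event in A8, 3 in A8i and A8i-B, and 6 in A8i-A. ADAMTS7, which cuts cartilage oligomeric matrix protein, had 2, 3, 6 and 4 events in A8, A8i, A8i-A and A8i-B. ADAMTS1 had 2 and ADAMTSL1 3 events in each library. ADAM9, ADAM19, ADAM22, ADAM23, ADAMTS9 and ADAMTS12 had 0 to 2 events per library and no call.

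The 4 MMP genes held 1.7% of the member events. MMP19, a matrix metalloprotease of broad substrate range, had 0 events in A8, 5 in A8i, and then 2 in A8i-A and 0 in A8i-B. It was highest in A8i and was called in each of the 4 pairs, but the counting interval of each of these ratios held 1. MMP19 (reverse strand of chromosome 12, 56229217 to 56236750) overlaps TMEM198B in the annotation. MMP17, a membrane-anchored protease, had 1 event in A8, A8i and A8i-B and 2 in A8i-A, and the gelatinase MMP2 had 1 event in A8 and A8i-A and 0 in the others. The other gelatinase, MMP9, had 0 events in each library, and TIMP1, an inhibitor of MMPs, had 1 in each. MMP14 had no row in the table.

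Of the genes grouped by symbol as cadherins, catenins, claudins or nectins, CTNNBIP1 and CLDN12 were called. CTNND1, the p120 catenin that holds cadherins at the membrane, had 14 events in A8 and 13 in A8i, beside 9 in A8i-A and 12 in A8i-B, the third highest sum of all members. CTNNA1, which links cadherins to actin, had 4 events in A8, A8i and A8i-A and 5 in A8i-B. CTNNB1, beta-catenin, had 2 events in A8 and A8i-B and 1 in A8i and A8i-A. None of these 3 genes was called. JUP, plakoglobin, had 1 event in A8i-A alone. CTNNBIP1, an inhibitor of beta-catenin and TCF binding, had 0 events in A8i, 1 in A8 and A8i-A, and 4 in A8i-B, and was the 1 catenin-group gene with a call. The group summed to 21 events in A8, 18 in A8i, and then 16 in A8i-A and 23 in A8i-B.

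CDH24, a cadherin that binds alpha- and beta-catenin, had 9 events in A8 and 6 in A8i, beside 5 in A8i-A and 5 in A8i-B. It was highest in A8, short of the rule. PCDH1 and PCDHGC3, both protocadherins, had 0 or 1 event per library, and CDH1 and CDH2 had no row in the table. CLDND1, a protein with a claudin domain, had 6 events in A8, 11 in A8i, and then 10 in A8i-A and 9 in A8i-B. It was lowest in A8, and was called in A8i against A8 only after scaling to the library totals. CLDN12 had 2, 3, 1 and 2 events in A8, A8i, A8i-A and A8i-B, CLDN11 4, 2, 3 and 2, and CLDN15 0, 1, 1 and 1. NECTIN3 had 1 event in A8 and A8i-A and 0 in the others, and NECTIN2 had 0 in each library.

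The 4 genes that matched by name only held 14 events in all and no call. COL4A3BP, a ceramide transfer protein, had 1, 2, 1 and 2 events in A8, A8i, A8i-A and A8i-B. CTNNBL1, a spliceosome-associated protein, had 1 event in A8i-B, and the pseudogene ADAMTS7P4 had 1 in A8i-A. LOXL1-AS1, an antisense RNA, had 1, 1, 2 and 2 events, and it overlaps LOXL1, so that the numbers of both are uncertain, as are those of ADAMTS7 and its near copy ADAMTS7P4. In the annotation, 50 of the 77 members overlap a gene on the other strand and 28 another gene on the same strand.

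**Figure D3:**
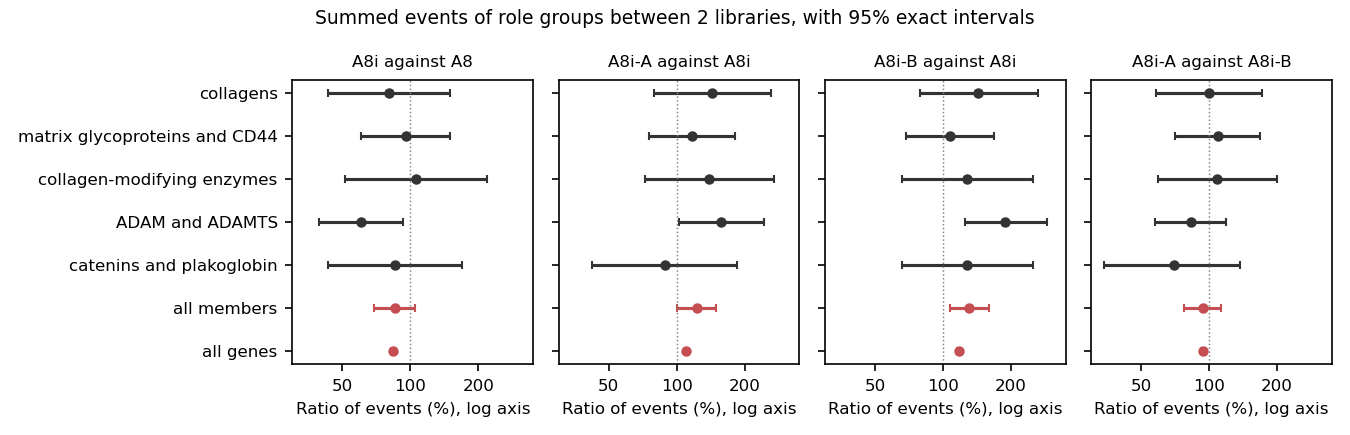
Ratio of summed events between the libraries of each pair (percent, log axis) for the 5 role groups with the most events, all members and all genes; points are ratios and bars 95% exact counting intervals. The ADAM and ADAMTS ratio is 60.7% for A8i against A8 and 189.2% for A8i-B against A8i, and the bars of the other 4 role groups cross 100% in each pair. The ADAM and ADAMTS bar crosses 100% for A8i-A against A8i-B. It spans the ratio over all genes in each pair except A8i-B against A8i.

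Outside the ADAM and ADAMTS genes, the larger groups gave ratios whose intervals held 100%. The collagens stood at 80.8% for A8i against A8 (43.2–149.3%), 142.9% for A8i-A against A8i (79.1–262.5%) and the same for A8i-B against A8i. The matrix glycoproteins stood at 95.3%, 117.1% and 107.3% in these pairs, the collagen-modifying enzymes at 105.9%, 138.9% and 127.8%, and the catenins at 85.7%, 88.9% and 127.8%. Between A8i-A and A8i-B, the ratios of these 4 groups lay between 69.6% and 109.1%, with intervals that held 100%. The ADAM and ADAMTS interval in this last pair held 100% as well. The library totals differ, and the intervals of these 4 groups also held the ratio over all genes in each pair. With ADAM15, so did that of the ADAM and ADAMTS genes, except in A8i-B against A8i.

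The number of events of a member went with its annotated structure about as it did over all genes. Across the 77 members, Spearman's rho of the summed events was 0.45 with the number of annotated transcripts, 0.41 with the number of exons that another transcript skips, 0.29 with the number of distinct introns and 0.04 with the length of the longest transcript. Across 9818 joined genes the values were 0.47, 0.43, 0.35 and 0.02. These are descriptions across genes, which share libraries and are not independent replicates. The median member had 29 introns and 11 transcripts, whereas the median gene had 17 introns and 9 transcripts. Per 10 introns and library, CDH24 had the most events, 4.46, followed by ADAM15 with 4.02, CLDN11 with 3.93 and CLDND1 with 3.75. Among other event-rich or called members, CD44 had 3.35, ADAMTS6 3.26, CTNND1 2.5, FN1 1.97, ADAMTS10 1.88, THBS3 1.6, ADAMTSL4 1.48 and COL13A1 1.12. Of the laminins and other collagens, LAMB2 had 0.714 events per 10 introns, COL27A1 0.692, LAMA5 0.511, LAMA3 0.241 and COL16A1 0.206. Low values also occurred in other families, such as 0.0568 for ADAM9 and 0.0347 for FBN1. No difference between families is read from these members.

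**Figure D4:**
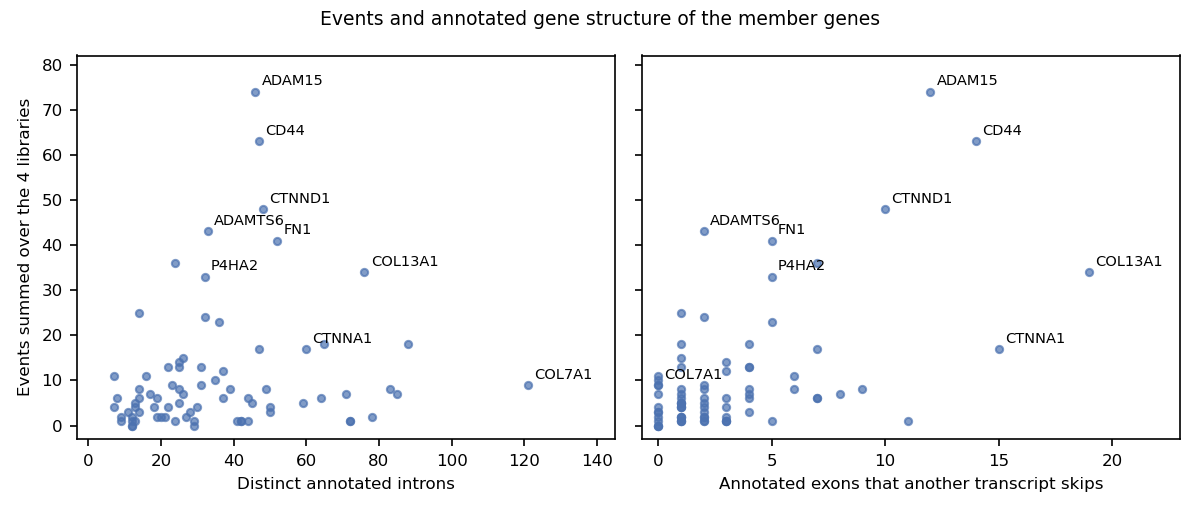
Events summed over the 4 libraries (vertical axis) against distinct annotated introns and against annotated exons that another transcript skips, with 1 point per member gene. ADAM15 with 74 events, CD44 and CTNND1 lie at the top with 46 to 48 introns, whereas COL7A1 has 121 introns and 9 events.

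A list of 50 symbols that work beside the members (matrix receptors, junction plaque proteins, collagen assembly factors, other proteases and focal adhesion proteins) had 39 rows in the table, with 96 events in A8 and 86 in A8i, beside 96 in A8i-A and 103 in A8i-B. Between A8i and A8, 1 of the 39 was called with more events in A8i and 3 with fewer, beside 3.46% and 10.2% of all genes. CTSB, the lysosomal protease cathepsin B, had 12 events in A8, 3 in A8i, and then 9 in A8i-A and 13 in A8i-B. DAG1, the laminin receptor dystroglycan, had 2, 0, 2 and 3 events. Both were low in A8i. F11R, with 0, 2, 0 and 0 events, and TJP1, with 3, 4, 1 and 1, were instead highest in A8i. With ECM1a put back, 4 of the 39 were called with more events and 3 with fewer (8.35% and 4.82% of all genes), and with ECM1b 3 and 3 (10.7% and 3.96%). Between the isoforms, 1 was called with more events in A8i-A and 2 with fewer (5.13% and 8.31%). The focal adhesion genes PXN (paxillin), with 9 to 13 events, and PTK2 (focal adhesion kinase), with 10 to 12, were called in no pair.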

How the data were processed

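The values analysed were the numbers of events per gene that the authors deposited for 4 RNA-seq libraries of HeyA8 cells, 1 library per line, grouped by the sample titles. The deposited numbers are whole, unscaled values of 0 to 32 per gene and are neither read counts nor a normalised unit. Their counting program, filters and strand are not given in the sources used here. For the reads, the authors used Trim Galore and FastQC, mapped them to hg19 with TopHat and estimated FPKM with Cufflinks, and the submitters' processing notes name Cufflinks 2.2.1 and the build GRCm38, a mouse build. The number of fragments behind each library is unknown, so event totals stand in for depth. Columns of per-sample values left unused: 0.

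Members were taken by symbol and grouped by family, with the members and lists chosen while earlier results of these data were known. A gene was called at a difference of at least 2 events and 2-fold on the (events + 1) scale, over all 9885 genes. With 1 library per line, no test was run and no p-value is given. Intervals of ratios are 95% exact Clopper-Pearson intervals, given the sum of both libraries. Where a gene had 0 events in 1 library, a floor of 3 counts stood in for the 0 in the fold. No such fold was computed where the other library was at or under the floor. Folds between numbers above 0 used the numbers as they were, and the calls used events + 1 without the floor. The code for the calls was checked on simulated event numbers, which is no test of the libraries. Genes were joined by Ensembl identifier to GENCODE release 44 lifted to GRCh37 (9818 genes, 99.3%; all 77 members), which also gave exons and sequences.

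Genes named singly were the 3 members with the most events per family, up to 5 called members per pair and direction, members called opposite ways on silencing and on reintroduction, and FN1, CD44, CDH1, CDH2, CTNNB1, CTNND1, COL1A1, THBS1, MMP14, TIMP1, VCAN and ECM1. All other members are named to account for each of them, and partner genes were singled out after their values were seen. Alternatives were at least 2 events, protein-coding members, members with an event in all 4 libraries, the total without the top member, scaling to the library total, a difference of at least 3 events and a pseudocount of 0.1. The computations used Python 3.11.15, numpy 2.4.6, pandas 2.3.3, scipy 1.17.1 and matplotlib 3.10.9.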

Additional observations from a re-analysis of the deposited data

How the results depend on the processing

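With at least 2 events in place of 1, the members detected fell to 36 in A8 and 32 in A8i, and to 35 in A8i-A and 42 in A8i-B, so that A8i-B in place of A8i-A had the most. With events scaled to the library total, 5 members had fewer events in A8i than in A8, and 4 had more in A8i-A than in A8i. Likewise scaled, 5 had more in A8i-B than in A8i, and 3 had fewer in A8i-A than in A8i-B. The shares over all genes were 4.18%, 5.79%, 4.05% and 3.2% in this order. With a difference of at least 3 events, 2 members had more events in A8i than in A8, beside 1.5% of all genes. In A8i-A against A8i, 5 had more (4.34% of all genes). In A8i-B against A8i, 6 had more and 1 had fewer (5.29% and 1.82% of all genes). In A8i-A against A8i-B, 1 had more and 3 had fewer (2.3% and 4.09% of all genes). For members with an event in all 4 libraries, no share over all genes was computed beside the counts. Among them, 5 had fewer events in A8i than in A8, and 4 had more and 1 had fewer in A8i-B than in A8i. In A8i-A against A8i-B, 1 of them had more and 2 had fewer. These last alternatives drop members or raise the limit by construction, so their counts are smaller. The other 67 recomputed counts and ratios stayed within 1.5 times the count or within the counting interval reported. For calls of single members, 100 recomputed calls held and 38 were lost, 20 to the difference of 3 events and 18 to scaling, and none changed sign. Scaling with TMM on read counts was not run, since the values are not read counts. Leaving out a library was not possible with 1 library per line. No paired analysis was possible because each line has 1 library and the result comes from no test. Small event numbers limit what can be seen, since 5 events against 2 or fewer cannot be told apart within counting error.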
